A study of Mus musculus with 19 samples.

Results

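The genes described here encode the core histones H2A, H2B, H3 and H4 that a dividing cell makes in step with DNA replication, and the somatic linker histones H1f1 to H1f5. They were taken from a RefSeq gene table of mouse build GRCm38.p6 (mm10) by symbol (H1f1 to H1f5, or H2ac, H2bc, H3c or H4c followed by a number) or by an older name of the Hist1h to Hist4h series. This gave 66 of 21887 protein-coding genes: 5 linker, 18 H2A, 18 H2B, 12 H3 and 13 H4 genes. H4f16, H2bu2, H2aw and H4bc24 came in through older names. On chromosome 13 lie 53 of them, on chromosome 3 lie 10, on chromosome 11 lie H2bu2 and H2aw, and H4f16 is on chromosome 6.

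Open chromatin was assayed by ATAC-seq, in which a transposase inserts sequencing adapters into accessible DNA, in Prom1-positive cells taken with magnetic beads from forebrains of mouse embryos at embryonic day 14. The 19 libraries form 4 groups by title: 4 controls (Foxc1 WT, no diet), 4 mutants (Foxc1 hith/LacZ, no diet), 5 controls on a retinoic acid diet (Foxc1 WT, RA diet) and 6 mutants on that diet (Foxc1 hith/LacZ, RA diet). The hith allele of Foxc1 is hypomorphic, and the other allele carries a LacZ insertion. Mutant 1 has a mutant title and a Foxc1 WT genotype label, and it was kept in its title group. The series concerns how retinoic acid, a signal that the meninges around the brain release, acts on neurogenesis. Foxc1 acts in the meninges, so the sorted cells are not the cells in which it is known to be needed. Whether the libraries of a group come from separate embryos is not stated in the labels. The p-values below therefore cover the spread among these libraries alone, which may be technical.

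Replication-dependent histone genes lack introns as a rule, and their messages end in a stem-loop in place of a poly(A) tail. They are transcribed in S phase from histone locus bodies, nuclear bodies built around the coactivator NPAT. H2A and H2B genes often stand head to head and share 1 divergent promoter. H2A and H2B form dimers, H3 and H4 form the tetramer at the centre of the nucleosome, and H1 binds the linker DNA where it leaves the particle. Neural progenitors of the embryonic ventricular zone divide and so make these proteins.

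The promoters differ by class, and the windows below show the 120 bases upstream of the annotated start of 6 members (RefSeq, GRCm38.p6, on the strand of the gene). They were chosen because the later results turn on them or because they stand for a class. Capitals mark 4 motifs on either strand: the CCAAT box, whose letters are its name, the TATA box, searched as TATAAA, an octamer known from H2B promoters, ATTTGCAT, and the H1 box, AAACACA. H1f2 lies at chr13:23738687-23738806, H1f5 at chr13:21780626-21780745, H2bc14 at chr13:21721924-21722043, H3c6 at chr13:23562386-23562505, H4c3 at chr13:23698459-23698578 and H2bc23 at chr13:21810200-21810319.
H1f2: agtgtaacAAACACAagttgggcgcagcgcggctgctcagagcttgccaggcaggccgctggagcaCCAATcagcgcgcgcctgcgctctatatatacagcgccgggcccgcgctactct
H1f5: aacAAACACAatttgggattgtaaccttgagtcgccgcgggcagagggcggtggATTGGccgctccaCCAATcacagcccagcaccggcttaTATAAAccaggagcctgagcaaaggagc
H2bc14: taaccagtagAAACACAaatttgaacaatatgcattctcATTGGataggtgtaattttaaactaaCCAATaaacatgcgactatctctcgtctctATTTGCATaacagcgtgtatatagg
H3c6: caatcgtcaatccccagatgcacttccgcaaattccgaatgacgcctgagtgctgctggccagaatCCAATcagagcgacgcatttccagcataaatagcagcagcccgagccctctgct
H4c3: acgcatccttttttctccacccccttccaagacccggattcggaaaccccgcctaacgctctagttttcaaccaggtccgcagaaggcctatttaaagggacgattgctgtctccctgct
H2bc23: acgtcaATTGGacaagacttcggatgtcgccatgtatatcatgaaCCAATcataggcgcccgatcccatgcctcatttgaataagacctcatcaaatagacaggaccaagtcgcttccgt
The window of H4bc24 at chr13:21833623-21833742 has the same letters as that of H2bc23.

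Of the 66 members, 61 had a promoter in the RefSeq table, from 250 bases before to 50 after the start. In those windows CCAAT occurred on either strand in 52 of 61 members, against 37.4% of 32851 promoters of all genes. TATAAA occurred in 35 of 61, against 13.6%. The octamer occurred in 13 of 61, all H2A or H2B genes, against 1.74%. The H1 box occurred in 8 of 61, against 7.18%, and 4 of those 8 were among the 5 H1 genes. Windows of divergent pairs overlap, as those of H2ac12 and H2bc12 do, so the same motif can count for both genes. Each member has a single window, while every listed promoter of a gene counts among the 32851. Among the 12 H4 promoters CCAAT occurred in 3 (H4c1, H4c3 and H4c4), and that of H4c3 lies outside the shorter window printed above. The median GC content was 45.3% in members and 52.7% over all promoters. CCAAT was in 25 of 30 promoters of members with a summit in all libraries and in 21 of 23 of members with a summit in none, and TATAAA was in 17 of 30 and 14 of 23.

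The deposited files list peak summits, the points of strongest signal, with a score that is a -log10 q value. Libraries held 29112 to 122591 summits, so each list was reduced to its 29112 best-scoring summits, called matched summits below. Read depth is unknown. Mutants 3 and 4 had median deposited scores of 8.19 and 6.44, with mutant 4 on the diet at 7.33 and the other 16 libraries at 11.1 to 18.4. These medians, used as a covariate below, cover lists of unlike length and are not directly comparable. The score at the end of the matched list was 18.1 in mutant 3 and 5.42 in mutant 4. It was 8.34 to 53.7 in the other 16 libraries, leaving aside mutant 4 on the diet, whose whole list was used. By that score mutant 3 was within the range of the others and mutant 4 below it. Mutants 3 and 4 stood apart in the histone results, so those are given with and without them. Among cell type markers with a matched summit in all 19 libraries were 7 of 10 neural progenitor genes, 2 of 6 of intermediate progenitors and neurons, 1 of 8 meningeal, 1 of 6 endothelial, 0 of 5 microglial and 0 of 5 erythroid genes. Prom1 itself had a matched summit in 13 libraries.

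Histone genes mostly had a matched summit in every library or in none, as did most protein-coding genes. A matched summit lay within 1 kb of a gene end in all 19 libraries for 33 of 66 members (50%), against 36.6% of all protein-coding genes. No library had one for 25 members (37.9%), against 43.7% of all genes. The 8 members in between were 12.1%, against 19.7% of all genes. A gene with a matched summit is called open below, and a missing summit need not mean closed chromatin. The 33 members include neighbours that share a summit in all 19 libraries, so they stand for fewer sites than genes. H2ac10 and H2ac4 were open through summits shared with H3c8 and H3c2, at a median of 1402 and 1258 bp from their own starts. Regions at their own starts held a matched summit in 8 and 3 libraries. With all deposited summits, 35 members had one in every library and 22 had none in any, against 43.1% and 32.0% of all genes. H4 genes were covered most often, with 8 of 13 in all libraries, then H2A and H2B with 9 of 18 each, H3 with 5 of 12 and H1 with 2 of 5. The shares over 5 to 18 genes of a class are given as a description.

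Location divided the family more sharply than class. In the largest cluster, from H4c8 to H1f1 on chromosome 13, 21 of 28 members had a matched summit in all libraries. In the small cluster from H2ac12 to H2bc11 on that chromosome 4 of 5 did, and in the cluster from H2bc13 to H4bc24 5 of 18 did. On chromosome 3 it was 0 of 10, while H2bu2, H2aw and H4f16 on chromosomes 11 and 6 were open in all 19 libraries. H2bc1 and H2ac1, the pair known for expression in testis, had no deposited summit within 1 kb in any library.

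**Figure D1:**
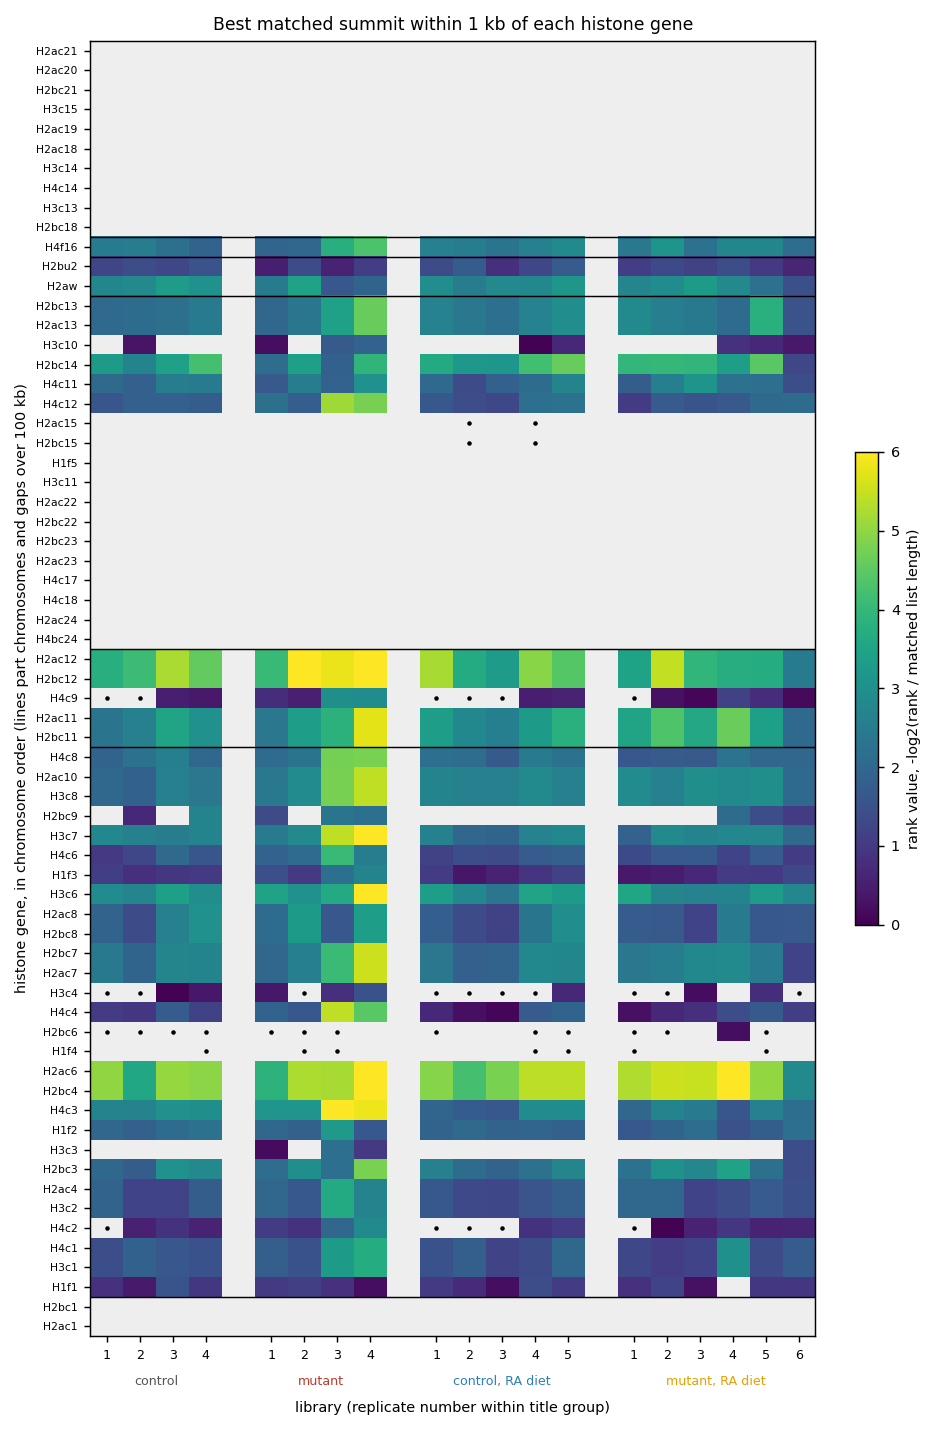
Rank value of the best matched summit within 1 kb of each of the 66 histone genes (rows, in chromosome order) in the 19 libraries (columns, by title group). Brighter colours mark better ranks, grey marks no matched summit, black points mark a deposited summit below the matched list, and the 33 genes filled in every column sit beside 2 grey blocks of neighbouring genes.

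The empty members stood together in 2 stretches with no deposited summit in any of the 19 libraries. On chromosome 3 the stretch ran from 96195392 to 96301049, 105656 bp without a summit. It held 12 coding genes, of which 10 were the histone genes from H2ac21 to H2bc18 and the others were Bola1 and Fcgr1. On chromosome 13 the stretch ran from 21753219 to 21855286, 102066 bp, and held 12 members from H2ac15 to H4bc24 and no other coding gene. The linker histone gene H1f5 lies inside it. Gaps over 100 kb held 22 of 66 members, against 14.96% of coding genes. At the edge of the second stretch, H2ac15 and H2bc15 share a divergent promoter. A weak deposited summit lay within 1 kb of both genes in 2 libraries, both controls on the diet. It was 693 to 792 bp downstream of the start of H2ac15, a gene of 536 bp, and so past its end and not at the promoter.

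Members of the empty stretches had near-copies elsewhere more often. Each promoter was cut into all its 50-base words, and a word was called copied when it occurred at another promoter location in the table. More than 50% of words were copied in 10 of 20 promoters inside the 2 stretches and in 0 of 41 outside, and 39 of those 41 had no copied word. The promoters of H2bc23 and H4bc24 were identical over 300 of 300 bases. A read that fits several places equally well cannot be placed, and how the authors treated such reads is not given in the sources used here. The other 10 promoters of the stretches had no copied word, and their genes had no matched summit either. The part of sequence copies in the missing summits was not tested.

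Where the genes were open, neighbours often shared 1 summit. In all 19 libraries the best summit was the same one for 9 pairs: H2bc13 and H2ac13, H2ac12 and H2bc12, H2ac11 and H2bc11, H2ac8 and H2bc8, H2bc7 and H2ac7, H2ac6 and H2bc4, H2ac10 and H3c8, H2ac4 and H3c2, and H4c1 and H3c1. In the H2A and H2B pairs with known strand the genes were divergent and their starts were 173 to 248 bp apart. The 36 members that could be tested therefore came from 27 distinct sites, and pairs are not independent of each other.

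The strongest site of the family was the divergent promoter of H2ac6 and H2bc4. Its summit had a median rank of 880 over the 19 libraries, where rank 1 is the best score of a library. It ranked 907, 2436, 880 and 935 in controls, 1971, 762, 778 and 80 in mutants, 964, 1552, 1046, 693 and 693 in controls on the diet, and 746, 626, 641, 387, 887 and 4075 in mutants on the diet. The groups overlapped, and the best and the worst library were mutant 4 and mutant 6 on the diet. Next came H2ac12 and H2bc12 with a median rank of 1681, H2bc14 with 2694, and H2ac11 and H2bc11 with 2833. The median over members open in all libraries was 5416, close to 5290 over all genes open in all libraries.

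Of the linker genes, H1f2 was the best ranked, at 3064 to 10414 with a median of 7573. H1f3 ranked 4489 to 22629 with a median of 14291. H1f1 had a matched summit in 18 libraries, at ranks from 9846 to 25086, and was missing in mutant 4 on the diet. H1f4 had no matched summit, and the weak deposited ones of 7 libraries lay within 1 kb of its end, at ranks from 29625 to 58429. They were also the best summits of the neighbouring H2bc6. H1f5 had none. Linker histone genes thus ranged from open in every library to no summit in any.

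Besides H1f1, 7 members were open in some libraries: H4c2 in 14, H4c9 in 13, H3c10 in 9, H2bc9 in 8, H3c4 in 8, H3c3 in 4 and H2bc6 in 1. H3c3 had a matched summit in 3 of 4 mutants (1, 3 and 4), 0 of 4 controls, 0 of 5 controls on the diet and 1 of 6 mutants on the diet. H3c10 had one in 3 of 4 mutants, again 1, 3 and 4, against 1 of 4 controls. Per library, 36.5 ± 1.73 members had a matched summit in the control group (SD, n = 4) and 39.0 ± 2.00 in the mutant group (SD, n = 4). With the diet the numbers were 35.4 ± 1.95 for controls (SD, n = 5) and 37.2 ± 1.94 for mutants (SD, n = 6). The mutants' excess of 2.50 was 4.50 with a 500 bp window and 0.25 with 2 kb, and that on the diet, 1.77, turned to -0.37 with all deposited summits. The ranges of all groups overlapped, between 34 and 40 in all. No member was present in all libraries of 1 group and absent from the other in any of the 5 contrasts (0.00914% of all genes were so separated between mutants and controls, 0.0411% between controls on and off the diet, 0.00457% between mutants on and off the diet, 0% between the genotypes on the diet and 0.0274% between mutants on the diet and controls). Fisher's exact test, adjusted over 21887 genes, called no gene in any contrast, with 2 genes at p under 0.05 before adjustment in the first contrast. With 4 against 4 libraries its smallest p is 0.0286. A call there would need a large share of all genes separated at once, so the lack of calls says little. The larger groups of the other contrasts ease this limit without removing it.

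The clearest pattern across libraries was in the ranks of mutants 3 and 4. Each rank was written as a rank value, -log2 of the rank divided by 29112, so that a higher value is a better rank and a difference of 1 is a 2-fold change of the rank number. The median over the 36 tested members was 3.66 in mutant 3 and 4.53 in mutant 4. In mutants 1 and 2 it was 2.04 and 2.56, and in the other 17 libraries together, mutants 1 and 2 included, it ran from 1.68 to 2.75. The median over all 10343 genes tested did not move that way, at 1.70 and 1.71 in mutants 3 and 4 against 1.72 to 2.39 in the other 17. In these bulk samples a site open in more cells and a site more open per cell cannot be told apart.

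**Figure D2:**
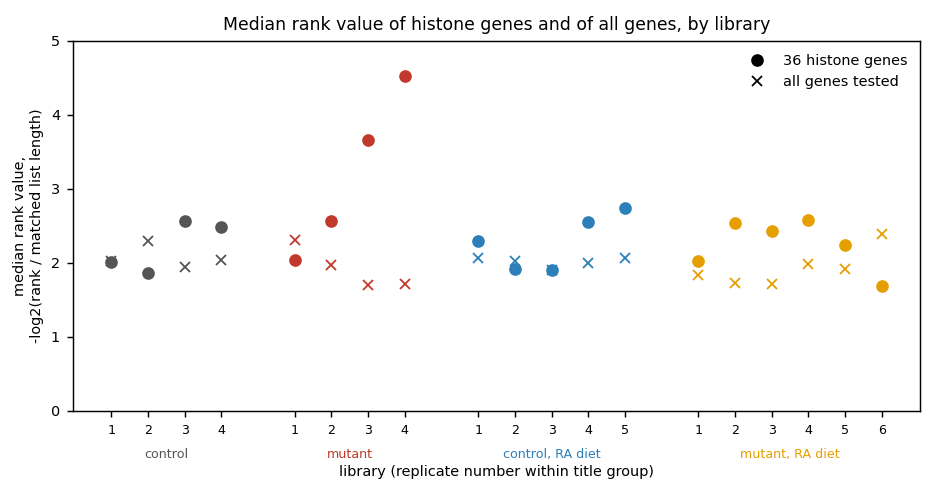
Median rank value, -log2(rank / matched list length), of the 36 tested histone genes (circles) and of all tested genes (crosses) in each library, coloured by title group. Mutants 3 and 4 reach 3.66 and 4.53 for the histone genes, above the 1.68 to 2.75 of the other 17 libraries, while their values for all genes are 1.70 and 1.71.

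The pattern was not equal between classes. H4 genes had medians of 3.92 and 4.01 in mutants 3 and 4 against 1.32 to 2.12 in the other 17 libraries. H3 genes had 3.66 and 5.43 against 1.86 to 2.83, H2A genes 3.85 and 5.43 against 1.68 to 3.27, and H2B genes 3.43 and 4.79 against 1.54 to 3.40. The 5.43 of both H3 and H2A genes in mutant 4 is the summit that H3c8 and H2ac10 share. Other sites shared across classes, such as those of H2ac4 and H3c2 and of H4c1 and H3c1, also count in both classes. The class values are therefore not independent of each other. The 3 tested H1 genes had 2.19 and 1.66 against 0.58 to 1.56. Of the 27 distinct sites, 6 in mutant 3 and 8 in mutant 4 were among the 1000 best summits of their library, against 0 to 2 in the other libraries. Counted as genes, 0 to 4 members were among them in the other 17 libraries. Of all 10343 genes tested, 914 to 1099 per library had their best summit there. Replication-independent histone variants, which are not restricted to S phase, had medians of 1.66 and 2.29 in mutants 3 and 4, against 1.37 to 2.17 elsewhere. Marker medians in mutants 3 and 4 were 1.46 and 1.20 for neural progenitors (1.22 to 2.48 elsewhere), 1.29 and 2.83 for intermediate progenitors and neurons (0.83 to 2.21), 0.65 and 0.75 for meninges (0.25 to 1.07) and 0.38 and 1.37 for endothelium (0.09 to 1.34). These cover only markers with a matched summit in at least 10 libraries. For neurons these were Neurog2, Neurod1 and Tubb3, and for meninges Foxd1, Col1a1, Dcn and Tbx18. The endothelial value is that of Kdr alone. Mutant 4 on the diet had a histone median of 2.58. Its median score of 7.33 covers a shorter list, used whole, and cannot be set beside those of mutants 3 and 4. The part of cell makeup and of the deposited scores of mutants 3 and 4 in the histone ranks was not tested.

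Single genes show it plainly. The summit at the start of H4c3, an H4 gene of the largest cluster whose promoter is printed above, ranked 4430, 4548, 3549 and 3676 in controls and 3313, 3316, 243 and 507 in mutants. On the diet it ranked 7462, 8629, 9264, 3917 and 3823 in controls and 7144, 4455, 5262, 9640, 4652 and 6523 in mutants. All 4 mutants were above all controls, but mutants 1 and 2 by little and mutants 3 and 4 by far. H4c4, another H4 gene, ranked 14209, 15015, 8613 and 12983 in controls and 7718, 9381, 676 and 1325 in mutants. On the diet it ranked 7579 to 26902 in controls and 8987 to 24332 in mutants. H4c4 thus stood near the top of the matched list in mutants 3 and 4 alone.

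The H3 gene H3c8 and the H2A gene H2ac10 share a summit that ranked 7253, 8026, 4744 and 5591 in controls and 5473, 3903, 1064 and 675 in mutants. On the diet it ranked 3997 to 4783 in controls and 3686 to 7039 in mutants. Controls and mutants overlapped only through mutant 1. H4c9 had no matched summit in controls 1 and 2, ranks of 20425 and 21895 in controls 3 and 4, and ranks of 16949, 20335, 3687 and 3845 in mutants. H4c8 ranked 4853 to 7721 in controls and 6789, 5860, 1082 and 1056 in mutants. Not every site followed: H2bc14, the H2B gene with an octamer, ranked 1563 to 4468 in controls and 6621, 2766, 8045 and 1922 in mutants.

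**Figure D3:**
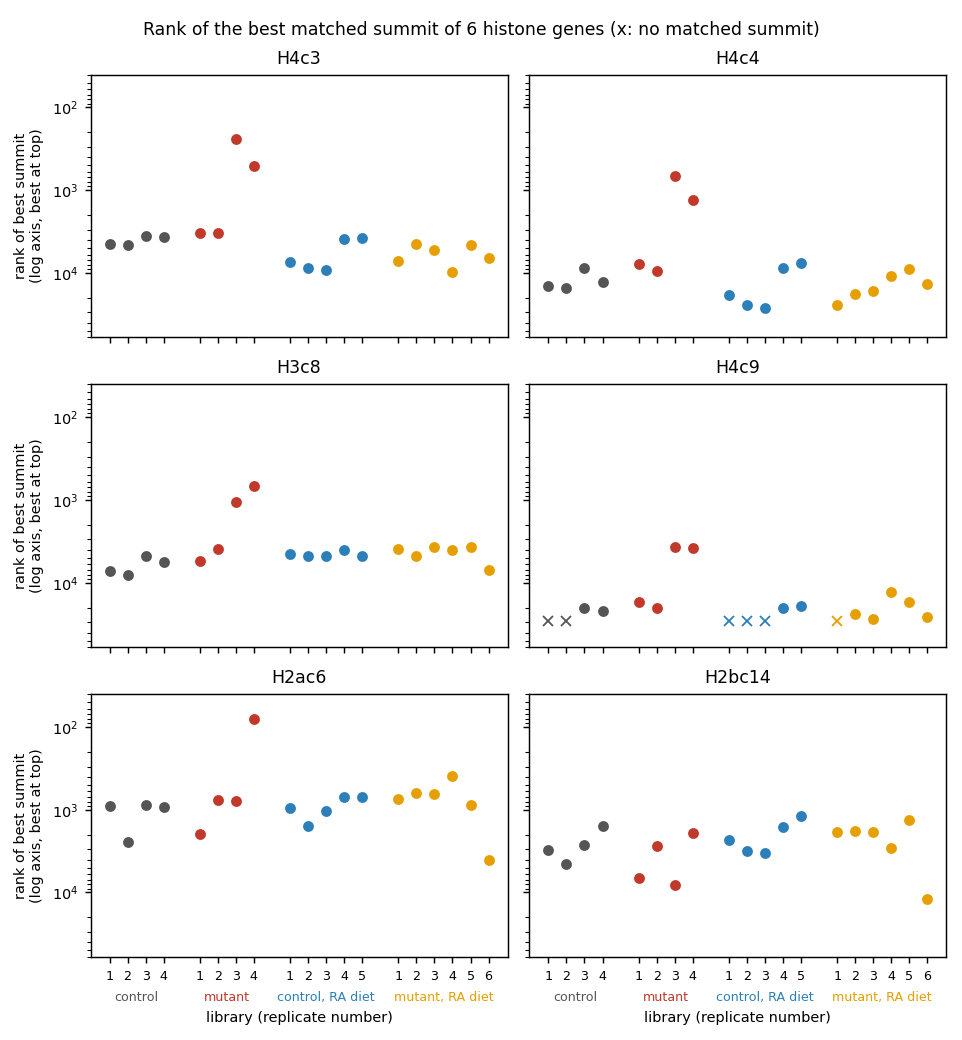
Rank of the best matched summit of 6 histone genes in each library, on a log axis with the best ranks at the top, coloured by title group. Mutants 3 and 4 reach ranks 243 and 507 at H4c3 while mutants 1 and 2 sit at 3313 and 3316 near the controls, and H2bc14 shows no such gap.

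No member passed the test across genes. In the limma fit of 10343 genes, 0% of all genes were called between mutants and controls at an adjusted p under 0.05, and 0 of 36 members (lowest adjusted p = 0.265). The members' median difference was 0.97, with 32 higher and 4 lower in mutants, against a median of -0.11 over all genes. At an unadjusted p under 0.05, 20 of 36 members were higher in mutants and 0 lower, from 15 of the 27 sites. Over all genes 4.92% were higher and 9.74% lower at that p. By class these were 8 of 10 H4, 5 of 5 H3, 4 of 9 H2A, 2 of 9 H2B and 1 of 3 H1 genes. A site shared by genes of different classes counts in each of them. The smallest p-values belonged to H2ac10 and H3c8 (difference 1.66, SE 0.45, limma adjusted p = 0.265) and H4c9 (1.57, SE 0.42, limma adjusted p = 0.265).

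The pattern rested on mutants 3 and 4, and the fit without them was added after their values were seen. They held the highest median histone ranks, so leaving them out favours a smaller difference. It also leaves mutants 1 and 2 alone in their group. Without mutants 3 and 4 the median difference between mutants and controls was 0.089, with 21 members higher and 15 lower. In that fit 0 of 36 members had an unadjusted p under 0.05 (0.754% of all genes). Without mutant 2 instead, whose histone ranks were near those of controls so that leaving it out favours the difference, 13 of 36 members were called higher, at 6.74% of all genes called. Without mutant 1, whose genotype label conflicts with its title, no member was called in this contrast.

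The mirror image appeared between mutants on and off the diet, a comparison that uses the same 4 mutants. Over all genes 0.0193% were called, and 0 of 36 members (lowest adjusted p = 0.0767, H4c3). The members' median difference was -0.90, with 33 lower and 3 higher, against 0.0025 over all genes. At an unadjusted p under 0.05, 22 members were lower and 0 higher, while over all genes 9.11% were lower and 6.58% higher. H4c3 differed by -2.49 (SE 0.54), H4c4 by -2.36 (SE 0.58) and H4c8 by -1.61 (SE 0.41), with limma adjusted p = 0.0767, 0.0848 and 0.0848. Without mutants 3 and 4 the median was -0.096, and 2 members had an unadjusted p under 0.05, 1 in each direction (8.12% of all genes). Leaving out mutant 1, mutant 2 or mutant 6 on the diet made calls here, of 15, 16 and 6 members, at 2.78%, 4.94% and 3.50% of all genes called. So did the median score of a library as a covariate, of 15 members at 3.23%.

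**Figure D4:**
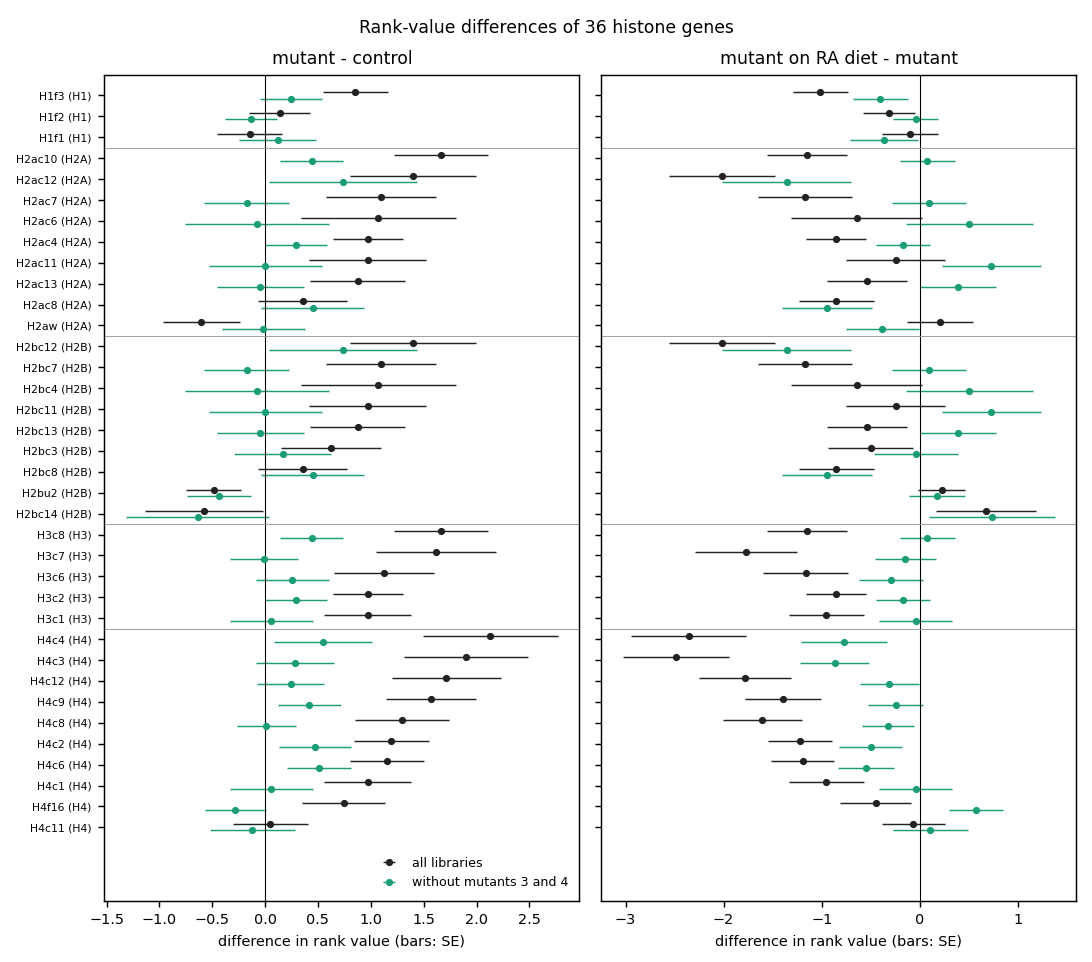
Difference in rank value (limma estimate, bars are SE) for the 36 tested histone genes between mutants and controls (left) and between mutants on the RA diet and mutants (right), with all libraries (black) and without mutants 3 and 4 (green), by histone class. The median moves from 0.97 to 0.089 on the left and from -0.90 to -0.096 on the right when these libraries are left out.

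Groups without those libraries had member medians near 0. Between controls on and off the diet the median difference of the members was -0.020, between the genotypes on the diet 0.032, and between mutants on the diet and controls -0.035. No member was called or had an unadjusted p under 0.05 in these contrasts, where 0.00967%, 0% and 0% of all genes were called and 4.58%, 1.54% and 11.3% had such a p. The smallest p-values in the first belonged to H2ac10 and H3c8 (0.47, SE 0.42) and H4c3 (-0.62, SE 0.56), both with limma adjusted p = 0.999. On the diet, H2bu2 differed between genotypes by -0.28 (SE 0.22) and the pair of H2ac12 and H2bc12 by -0.52 (SE 0.51). Between mutants on the diet and controls, the pair of H2ac11 and H2bc11 differed by 0.72 (SE 0.50) and H2ac8 by -0.50 (SE 0.39). With the median score as a covariate the pair turned to -0.11 and the members' median of this contrast to -0.50. The interaction of genotype and diet had a median of -0.93 over the members, with 12 lower at an unadjusted p under 0.05 (3.20% of all genes) and none called (0% of all genes, lowest member adjusted p = 0.823).

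The position of a summit within a locus gave a separate readout, in bp from the start of the gene with positive values downstream. At H1f2, a linker histone gene of 725 bp, the best summit lay at 986, 974, 933 and 975 bp in controls and at -2, 44, 44 and -28 bp in mutants. On the diet it lay at 934, 940, 940, 44 and 930 bp in controls and at 974, 940, 923, 940, 974 and 44 bp in mutants. Controls and mutants did not overlap, and on the diet both genotypes were mostly at the downstream site.

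The downstream site of H1f2 lies 199 to 262 bp past its annotated end, at chr13:23739730-23739793, and the start site at chr13:23738779-23738851, which overlaps the end of the promoter printed above. The start site had a summit in 0 of 4 controls, 4 of 4 mutants, 1 of 5 controls on the diet and 1 of 6 mutants on the diet. The downstream site had one in 4 of 4, 0 of 4, 4 of 5 and 5 of 6. No library listed both, also among all deposited summits, so each library held exactly 1 of these summits. The ranks at H1f2 did not differ in the same way: 6061 to 8149 in controls, and 7402, 8110, 3064 and 9208 in mutants.

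Both H1f2 regions separated mutants from controls, which 0.152% of 44878 regions did. No member region was separated between controls on and off the diet (0.401% of all regions), mutants on and off the diet (0.12%), the genotypes on the diet (0.0178%) or mutants on the diet and controls (0.39%). Fisher's exact test gave p = 0.0286 for each, the smallest that 4 against 4 libraries allow, and an adjusted p of 1. In the limma fit of position over 10080 genes, 0% of all genes were called between mutants and controls. H1f2 differed by -952 bp (SE 203, limma adjusted p = 0.397), with all 4 mutants upstream of all controls. Mutants on the diet differed from mutants by 785 bp (SE 185, limma adjusted p = 0.395), at 0.0298% of all genes called. Both passed without mutant 6 on the diet (-952 and 936 bp, limma adjusted p = 0.0314 and 0.0158), but that is the 1 library of its group at the start site, so leaving it out narrows the spread. The exact permutation test with all libraries gave p = 0.0286 and 0.0190 and called no gene in either contrast (lowest adjusted p = 0.999). The few ways to split these libraries bound its p from below, so a call needs many genes at the smallest p at once. The interaction was 994 bp (SE 267, limma adjusted p = 0.980). Mutant 1, with its Foxc1 WT label, was at -2 bp with the other mutants. H1f2 was the only protein-coding gene whose neighbouring regions separated mutants and controls in opposite directions, a fact known from earlier results of these data.

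The other linker genes did not repeat this by group. H1f3, of 776 bp, also had a start site (-7 to 200 bp) and a downstream site (295 to 412 bp past its end). Its start site had a matched summit in 1 of 4 controls, 3 of 4 mutants, 1 of 5 controls on the diet and 4 of 6 mutants on the diet, and 3 libraries listed both sites. The mutants' best summit differed from that of controls by -527 bp (SE 356, limma adjusted p = 0.860), so the spread within groups was large. At H1f1 the best summit lay between -47 and 81 bp in 18 libraries, at -46 bp in 3 of 4 controls.

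At several core histone promoters the summit sat at 1 of a few fixed positions. At H3c6, an H3 gene, it lay at -9, -3, -10 and -8 bp in controls and at 30, -8, 33 and 32 bp in mutants. In controls on the diet it lay at 29 to 35 bp and in mutants on the diet at 28 to 35 bp. All 11 libraries on the diet and mutants 1, 3 and 4 were thus downstream of the start, and mutant 2 was with the controls. The difference of controls on the diet from controls was 38.9 bp (SE 7.24, limma adjusted p = 0.228, 0% of all genes called), and that of mutants on the diet from controls 38.0 bp (SE 6.97, limma adjusted p = 0.103, 0.0198% called). Mutants differed from controls by 29.2 bp (SE 7.64, limma adjusted p = 0.807). The second passed without mutants 3 and 4 (limma adjusted p = 0.0396), and all 3 without mutant 2 (limma adjusted p = 0.00373, 0.00308 and 0.00570), which is the 1 mutant at the control position, so leaving it out narrows the spread. Exact permutation called no gene in these contrasts (lowest adjusted p = 0.951). With the median of all matched summits in the window in place of the best one, the differences of mutants and of mutants on the diet from controls changed sign (-94.9 and -41.5 bp).

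The divergent promoter of H2ac13 and H2bc13 had 3 positions, measured from the start of H2ac13. Controls were at -104 to -94 bp, mutants at -51, -99, -49 and -45 bp, and all 5 controls on the diet at -153 to -151 bp. Mutants on the diet were at -151, -151, -50, -45, -43 and -43 bp. No control overlapped a control on the diet, and mutant 2 was again with the controls. Between the genotypes on the diet the difference was 70.9 bp (SE 19.98, limma adjusted p = 1, 0% of all genes called). The H2ac4 and H3c2 site lay at -47 to -45 bp from the start of H3c2 in controls and at 1 to 4 bp in every control on the diet as well as mutants 1, 2 and 3, with mutant 4 at -96 bp. Mutants on the diet were at 1 to 3 bp, other than the second at -46 bp. At H4c12 controls were at 5 to 11 bp and mutants at 111, 87, 111 and 111 bp, a difference of 96.8 bp (SE 22.7, limma adjusted p = 0.667), with both groups on the diet spread from 24 to 127 bp.

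**Figure D5:**
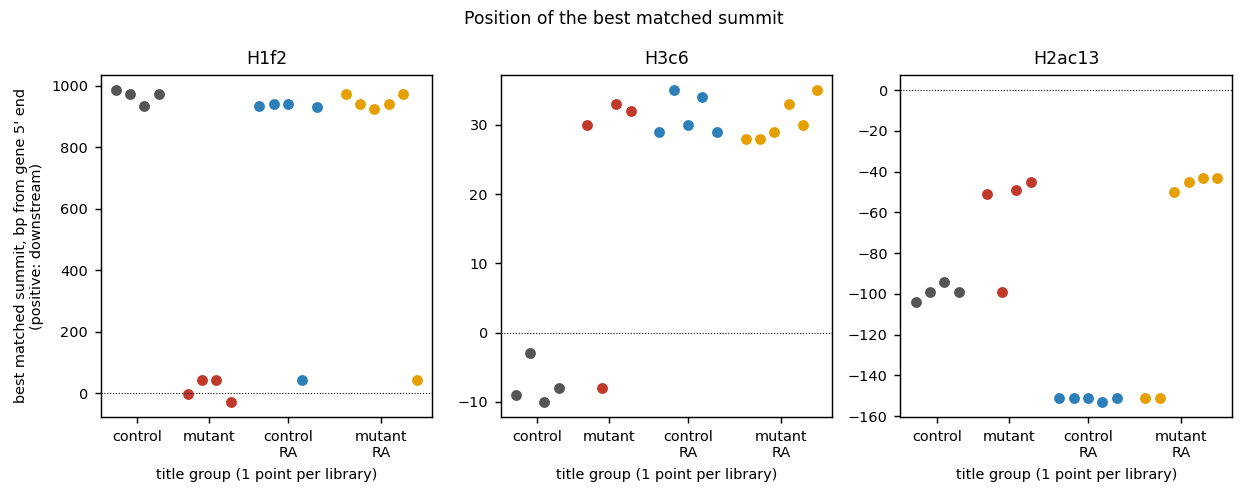
Position of the best matched summit in bp from the annotated start of H1f2, H3c6 and H2ac13 (positive is downstream), 1 point per library by title group. At H1f2 the controls lie at 933 to 986 bp and the mutants at -28 to 44 bp, at H3c6 the controls lie below 0 and all libraries on the diet at 28 to 35 bp, and at H2ac13 the libraries fall at 3 positions.

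Counted over the family at an unadjusted p under 0.05, 7 of 36 members differed in position between mutants and controls (5.38% of all genes), 7 between controls on and off the diet (2.75%), 6 between mutants on and off the diet (8.02%), 2 between the genotypes on the diet (3.64%) and 6 between mutants on the diet and controls (5.27%). None was called in any of them. By exact permutation, which takes genes with a position in every library of the pair of groups, the members at p under 0.05 were 3 of 34 (1.41% of all genes), 9 of 34 (4.2%), 1 of 33 (4.13%), 2 of 33 (3.25%) and 7 of 33 (4.63%) in the same order, and no gene was called. Both counts take the genes of a pair that shares a summit separately, so they stand for fewer sites. The 9 hold both genes of H2ac13 and H2bc13, H2ac6 and H2bc4, and H2ac4 and H3c2. The 2 are H2ac13 and H2bc13, and the 7 hold both genes of H2ac8 and H2bc8 and of H2ac4 and H3c2. The smallest p of this permutation test ran from 0.0022 to 0.0286 between contrasts. A call would need many genes at that p at once, so the lack of calls says little. Among the named ones, H3c7 differed by 49.9 bp (SE 16.4) and the H2ac4 site by 48.7 bp (SE 16.4) between controls on and off the diet, and the H2ac6 and H2bc4 site by 96.2 bp (SE 34.7) between mutants on and off the diet, each with a limma adjusted p of 0.567 or more. The H2ac4 difference turned to -68.45 bp with the median of all matched summits in the window. By contrast the summit shared by H2ac10 and H3c8 stayed within -141 to -138 bp of the start of H3c8 in all 19 libraries while its rank ran from 675 to 8026.

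Genes that regulate or package these histones did not share the pattern. Of 25 genes for histone gene transcription and 3 prime end processing, 21 had a matched summit in all libraries, and Nfyc, a subunit of the CCAAT-binding factor, had none. Between mutants and controls 24 were tested, 17 were lower and 7 higher, and the median was -0.29. At an unadjusted p under 0.05, Zfp473 (-1.46, SE 0.43), a partner of the U7 particle that cuts histone messages, and Sympk (-1.10, SE 0.41), a scaffold of the cleavage complex, were among 4 lower, and E2f3 (2.07, SE 0.84), a transcription factor of the G1 to S transition, was the 1 higher. Between mutants on and off the diet Casp8ap2, a histone locus body protein, differed by -1.94 (SE 0.47, limma adjusted p = 0.0848). Zfp473 differed by 0.91 (SE 0.39) and Cdk2, the kinase that activates NPAT, by -0.60 (SE 0.26).

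Of 11 replication-independent variants, 8 were tested, 6 were higher in mutants than in controls with a median of 0.11, and none had an unadjusted p under 0.05. H2az1 differed by 0.86 (SE 0.42), H1f10 by -0.32 (SE 0.27) and H1f0 by 0.18 (SE 0.25). Between mutants on and off the diet, 7 of the 8 were lower and 1 higher, with a median of -0.32, the direction of the histone members there. In that contrast 2 were lower at an unadjusted p under 0.05. Cenpa, the centromeric H3, differed by -0.77 (SE 0.23), H2az1 by -0.98 (SE 0.38) and H2aj by -0.37 (SE 0.21). Of 18 histone chaperones and assembly factors, 16 had a matched summit in all libraries. Between mutants and controls 16 were tested and 12 were lower, with a median of -0.24, led by Chaf1a (-1.08, SE 0.36), a subunit of the replication-coupled assembly factor CAF-1, Tonsl (-0.90, SE 0.36) and Rbbp4 (-1.28, SE 0.57). Between mutants on and off the diet, Nap1l1, an H2A and H2B chaperone, differed by -1.21 (SE 0.35), Asf1b by 1.41 (SE 0.68) and Rbbp4 by 1.01 (SE 0.52). No gene of the 3 lists was called in any contrast.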

How the data were processed

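Per the submitters' processing notes, reads were handled with BWA and MACS2 (Signac and DiffBind are also named) on mm10, also given as GRCm38; versions are not given in the sources used here. The deposited score of each summit is, by its range, a -log10 q value made by the authors per library. Each library was cut to its 29112 best-scoring summits. The best summit within 1 kb of either gene end gave a rank value (1 past the list where missing) and a position. Strand came from the RefSeq promoter table for 61 of 66 members; the lower coordinate served as the start of H2bc21, H2bc4, H3c1, H3c7 and H4c14. Genes with a matched summit in at least 10 of 19 libraries were fitted with limma 3.58.1 (R 4.3.3; robust, trend for ranks only), all groups together, 5 contrasts and the interaction, with Benjamini-Hochberg adjustment over all genes. Position needed 2 libraries per group, and libraries without a summit were missing there. Regions were summits chained at most 200 bp apart in at least 2 libraries. Occupancy and regions were compared with two-sided Fisher's exact tests. The fits were tested on simulated data with shifts between mutants and controls. Of 100 genes shifted by 2 SD, 15 were recovered in the rank fit and 12 in the position fit. Of 100 shifted by 4 SD, 90 and 94 were. The fits thus miss most shifts of 2 SD. Alternatives covered list length, window, filter, covariate and left-out libraries. Named genes were, per contrast, the 3 members with the smallest p in each fit, members with separated regions, the 5 best ranked, H1f1 to H1f5, and 3 genes per context list; other members singled out, such as H2bc14 and H3c3, were chosen after their values were seen. Members and lists were chosen with earlier results of these data known.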

Additional observations from a re-analysis of the deposited data

Results flagged for a closer look

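In 98 groups of 4 to 6 libraries, 22 had 1 library far from the others by Dixon's criterion at 95%; chance alone gives about 1 in 20, each gene of a pair that shares a summit is counted, and positions with few distinct values are prone to it. Mutant 2 had a matched summit at 36 members, against 40 in each of the other mutants. Mutant 6 on the diet ranked 7039 at H2ac10 and H3c8 and 7056 at H2ac11 and H2bc11, the worst of its group. The other groups concerned positions. At H1f1, control 2 was at -45 bp, mutant 4 at 81 bp and control 1 on the diet at -13 bp. At H1f2, control 4 on the diet and mutant 6 on the diet were at 44 bp, away from the downstream site of their groups. At H2ac13, mutant 2 was at -99 bp and control 4 on the diet at -153 bp, which read from H2bc13 is -130 and -76 bp. At H2ac4, mutant 4 was at 1161 bp and mutant 2 on the diet at 1211 bp. Control 2 was at -215 bp at H2ac6, which is -25 bp from H2bc4. Mutant 2 was at -8 bp at H3c6 and at 87 bp at H4c12. At H3c7, control 4 was at 337 bp and control 2 on the diet at 403 bp.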

How the results depend on the processing

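For the ranks, the number of members called stayed 0 between mutants and controls under every alternative run other than leaving out 1 library (0 to 13, the 13 without mutant 2, where 697 genes were called against 0 to 697 over these fits). Between mutants on and off the diet, members called went from 0 to 15 of 334 genes with the median score as a covariate and to 8 of 271 genes with the replicate block, and ran from 0 to 16 when 1 library was left out (0 to 511 genes). All genes called there, 2 with the settings of the report, were 4 at 50% of the list length, 0 with a 500 bp window, 1 with a 2 kb window, 0 with no filter, 1 with a summit in all 19 libraries and 0 without mutants 3 and 4. Between controls on and off the diet the 1 gene called became 0 in the first 5 of those settings, with all deposited summits and with the block (0 to 1 with 1 library left out), and between mutants on the diet and controls 0 became 2 without robust fitting, 1 with the covariate and 73 without mutants 3 and 4 (0 to 2). Without mutants 3 and 4, 2 genes were called between mutants and controls and the members' median was 0.089; the covariate moved it to -0.50 between mutants on the diet and controls, where the pair of H2ac11 and H2bc11 changed sign to -0.11.

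For positions, 1 member was called at most when 1 library was left out (0 to 1 in 4 contrasts), namely H3c6 without mutant 2 and H1f2 without mutant 6 on the diet, and 1 (H3c6) between mutants on the diet and controls without mutants 3 and 4. All genes called ran from 0 to 5 between mutants and controls, 0 to 2 between controls, 1 to 8 between mutants, 0 to 2 between the genotypes on the diet, 0 to 8 between mutants on the diet and controls and 0 to 2 in the interaction. The 3 and 2 genes called between mutants and between mutants on the diet and controls became 1 each with the median position and 0 each with the block and with exact permutation; without mutants 3 and 4 there were 1, 6 and 1 in mutants against controls, mutants on the diet against controls and the interaction, and with all deposited summits 1 each between the genotypes on the diet and in the interaction. With the median of all summits in the window, H3c6 changed sign to -94.9 bp in mutants against controls and -41.5 bp in mutants on the diet against controls, and the H2ac4 site to -68.45 bp in controls on against off the diet; the cause was not tested. Without mutant 2, 1 member (H3c3) was separated between mutants and controls (0 to 1), and without mutant 6 on the diet both H1f2 regions separated mutants on and off the diet (0 to 2). The mutants' excess in members open per library, 2.50, was 4.50 with a 500 bp window and 0.25 with 2 kb, and that between the genotypes on the diet, 1.77, was -0.37 with all deposited summits.

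Same-numbered libraries deviated together in some pairs and not in others: the correlation was over 0.1 in 0 of 4 pairs of mutants and controls (-0.33 to 0.016), 2 of 4 of controls on and off the diet (-0.011 to 0.33), 1 of 4 of mutants on and off the diet (-0.10 to 0.14), 3 of 5 of the genotypes on the diet (-0.042 to 0.28) and 2 of 4 of mutants on the diet and controls (-0.21 to 0.44). As not every pair passed 0.1 in any contrast, the numbers were not taken to pair the samples. Lists rank summits within a library, so a better rank can also mean that other summits weakened, and depth is unknown.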
